A study of Mus musculus with 55 samples.

Results

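Clonal biliary cells are cells of the bile duct lining that were sorted from mouse liver, and they are compared here between liver after partial hepatectomy (PH, surgical removal of part of the liver) and normal liver. The comparison holds 6 of the 55 RNA sequencing libraries of the series: 4 from normal liver and 2 from liver after PH, chosen by their titles (cBEC, clonal biliary epithelial cell). Every gene of the deposited table was examined, with 1 row per symbol. All animals were of the strain C57B/L6. The labels give no sex, age, time after surgery, sort markers or number of animals per library. Where nothing says that libraries come from separate animals, p-values measure only the spread between these libraries, which may be technical. One label is discordant: replicate 1 of the PH group is tagged as normal under treatment although its title says PH, and it is placed by its title. The nearest sorts are biliary cells (BEC) and ducts labelled as lacking progenitors (NPD). BEC has 4 normal and 2 PH libraries, and NPD has 2 normal and 2 PH libraries. The series as a whole addresses how liver cell populations behave during regeneration, going by its title.

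Biliary epithelial cells, or cholangiocytes, line the ducts that carry bile out of the liver. They modify bile by secreting chloride, bicarbonate and water, and they are held together by tight and adherens junctions. After hepatectomy the remaining liver grows back chiefly by division of existing hepatocytes, and biliary cells divide as well. Duct cells are also a source of growth factors for the mesenchymal and endothelial cells around them. YAP and TAZ, the coactivators restrained by the Hippo kinases, are active in duct cells and drive transcription together with TEAD factors, which bind the sequence GGAATG.

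Values are FPKM, fragments scaled to transcript length and to the size of the library, as deposited. The label was checked against 16 biliary markers, whose summed level was 12438, 18041, 22570 and 22309 FPKM in normal libraries 1 to 4 and 18097 and 20117 FPKM in PH libraries 1 and 2. Epcam, the epithelial adhesion molecule that marks duct cells, stood at 307, 357, 388 and 382 FPKM in normal and 331 and 335 FPKM in PH libraries. The groups overlapped, and the difference in Epcam was -0.10 ± 0.18 (log2, SE; limma adjusted p = 0.871). Krt19, a keratin of bile ducts, was 1383 FPKM in normal library 1 and 394, 506 and 487 FPKM in the other normal libraries, against 552 and 351 FPKM after PH, again with overlap (adjusted p = 0.771, limma). The NPD sort held far less of the biliary markers, with sums of 2877 to 4134 FPKM in normal and 4253 to 5206 FPKM in PH libraries.

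Normal library 1 stood apart from the others. Its correlation of log2(FPKM + 1) with the other normal libraries was 0.825 to 0.891, whereas the other normal libraries reached up to 0.947 with each other and the PH libraries correlated at 0.952. It held the highest level of 7 of 8 mesothelial markers and 10 of 11 fibroblast markers. It also held intestinal and mucosal genes: Tff3, a trefoil peptide of mucus-secreting cells, was at 182 FPKM there and at 0.316, 0 and 1.14 FPKM in the other normal libraries. Car9, a carbonic anhydrase, was at 178 FPKM there against 11.1, 3.04 and 9.26 FPKM. Some of the results below are given with and without this library. In the clonal cells alone, Gbp2, Tbxas1, Rspo1, Clec3b, Egfr, Tppp and Tmem252, named below, did not pass with it. Without it they passed (limma adjusted p = 0.0267 to 0.0479). PH library 1, with the discordant tag, correlated at 0.835 to 0.945 with the normal libraries and at 0.952 with PH library 2. Genes chosen from PH library 2 against the normal libraries cannot settle the tag. That choice rests on 1 PH library, and most of the genes it picked reached 10 FPKM in hepatocytes. PH library 1 lay beyond all normal libraries on the same side for most of these genes, but not for all.

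With limma on log2(FPKM + 1), 9 of 13225 genes passed an adjusted p under 0.05, that is 0.0681%: 6 were higher after PH (0.0454%) and 3 lower (0.0227%). At an unadjusted p under 0.05 there were 1346 genes (10.2%). Each of the 9 was abundant in the hepatocytes of the series, and 8 were listed at 0 in at least 3 of the 4 normal libraries or in both PH libraries. Trf, which encodes the iron carrier transferrin, was listed at 0 in all 4 normal libraries and at 156 and 470 FPKM after PH (adjusted p = 0.000212). Gstp1, a glutathione transferase, was listed at 0 in the normal libraries and at 41.7 and 32.9 FPKM after PH (adjusted p = 0.000325). Sephs2, the selenophosphate synthetase, went from 0 to 23.9 and 32.6 FPKM. The folate enzyme gene Aldh1l1, the acyl-CoA synthetase gene Acsl1 and the methyltransferase gene Inmt were likewise at 10.1 to 27.3 FPKM in PH libraries, and at 0 in the normal libraries except Acsl1 at 0.223 FPKM in normal library 4.

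The 3 genes that were lower had the reverse arrangement. Lcn2, a siderophore-binding protein of the acute phase, was at 118, 173, 146 and 222 FPKM in normal libraries and listed at 0 in both PH libraries (adjusted p = 1.66e-05). Ldha, which encodes a lactate dehydrogenase subunit used by nearly every cell, was at 37.9, 23.0, 20.6 and 28.5 FPKM and then listed at 0. Sult1a1, a phenol sulfotransferase, was measured in every library: 190, 93.5, 121 and 105 FPKM in normal against 11.7 and 22.3 FPKM after PH, a fall of 2.84 ± 0.34 on the log2 scale (SE, adjusted p = 0.0462). The call of Sult1a1 was lost with upper-quartile scaling (limma adjusted p = 0.0826), with no filter on low values (0.172), with plain moderation (0.12), with the replicate block (0.131) and when any library but normal library 1 was left out (0.0687 to 0.31). With PH library 1 grouped by its tag none of the 9 genes passed with limma, at adjusted p of 0.544 to 0.728.

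Hepatocyte means reached 12561 FPKM for Trf in normal liver and 5088 FPKM for Lcn2 after PH, where normal hepatocytes held 7.34 FPKM of Lcn2. Among the 30 tested genes at 1000 FPKM or more in hepatocytes, 17.2% of the values in the 6 libraries were exactly 0, against 2.77% among the 8823 genes under 10 FPKM. Trf and Lcn2 were placed alike in the BEC sort: Trf was listed at 0 in all 4 normal BEC libraries and at 157 and 401 FPKM after PH, and Lcn2 at 105 to 174 FPKM and then at 0. In NPD they were not: Trf was at 379 to 414 FPKM in normal and 197 to 378 FPKM after PH, and Lcn2 at 15.3 to 85.6 FPKM and then 46.5 to 74.8 FPKM. Aldh1l1, Acsl1 and Inmt were listed at 0 in both normal NPD libraries and above 0 in both PH NPD libraries. A hepatocyte list of 12 genes was at 0 throughout for 10 of them, and the others, Alb (779 FPKM) and Ttr (79.2 FPKM), were above 0 in normal library 4 only. An exact 0 in a table without counts can be a failed estimate, and whether these 9 differences arose in the cells was not tested. When only the genes under 10 FPKM in both hepatocyte groups were fitted, 0 of 8823 passed with limma and 922 had an unadjusted p under 0.05.

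**Figure D1:**
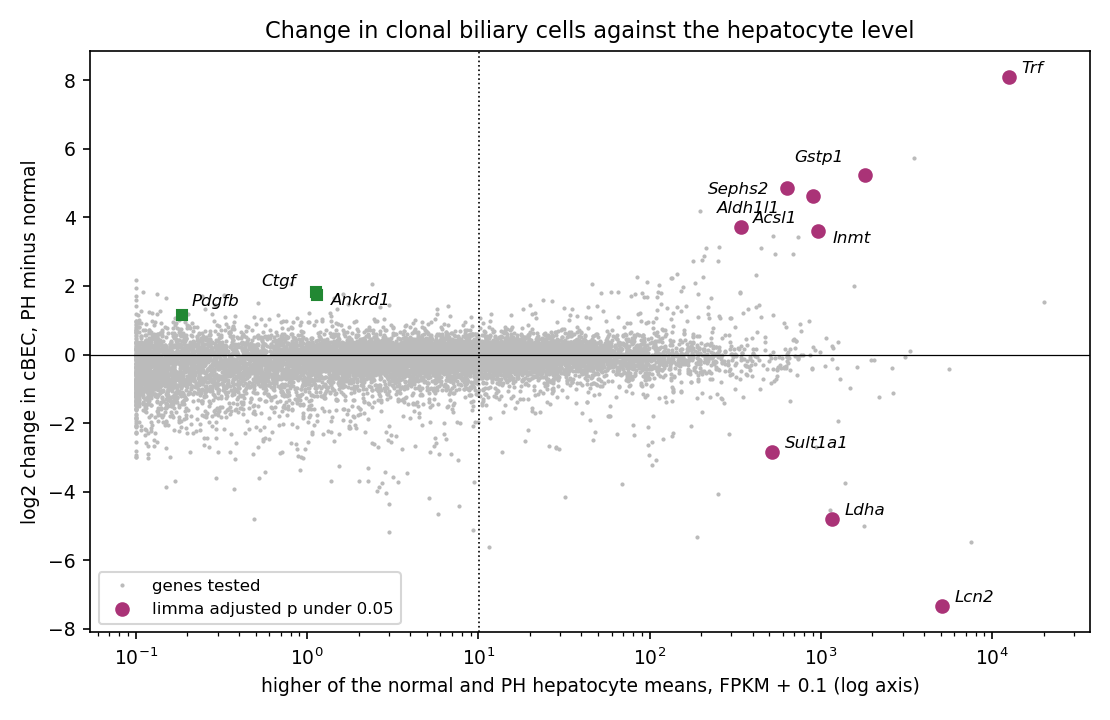
Each point is a gene tested in the clonal biliary cells, with the log2 change after PH (vertical) against the higher of the 2 hepatocyte group means (horizontal, log axis, FPKM + 0.1); the dotted line marks 10 FPKM. The 9 genes that passed lie at the right, at 339 FPKM or more in hepatocytes, and Ctgf, Pdgfb and Ankrd1 lie at the left.

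The remaining account concerns mostly genes that hepatocytes hold at low levels. None of these passed in the fit of the 6 libraries, so they are described by their values and by whether the groups overlapped. Over all genes tested, every PH library lay above every normal library in 876 (6.62%) and below in 1900 (14.4%); among genes under 10 FPKM in hepatocytes the shares were 5.58% and 16.3%. A fit of the 3 duct sorts together (16 libraries, 6 groups), which shares the estimate of spread, called 101 of 14491 genes in the clonal cells (0.697%), 32 higher (0.221%) and 69 lower (0.476%). These calls are not confined to genes low in hepatocytes. Of the 32 higher genes 16 (50%) reached 10 FPKM in a hepatocyte group, and of the 69 lower genes 18 (26.1%). Over all genes in that fit the share was 31.3%. Quantile normalization of that fit gave 50 higher and 30 lower and upper-quartile scaling gave 35 and 48, so the balance of directions depends on the scaling. The median change over all genes was -0.11, and 0.05 after quantile normalization. Without normal library 1 the fit of the clonal cells alone called 99 of 12824 genes (0.772%), 34 higher (0.265%) and 65 lower (0.507%), and 9.47% of genes then lay higher and 28.2% lower without overlap.

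Ctgf, a secreted matricellular protein and textbook YAP target, had the smallest p of the genes that were higher and low in hepatocytes. It lies at chr10:24315248-24318488 in mm9 and stood at 182, 277, 197 and 319 FPKM in normal libraries against 802 and 879 FPKM after PH. Both PH libraries were above every normal library, by 3.45-fold on the means (244 ± 65.3, SD, n = 4, against 840 ± 54.2, SD, n = 2). The log2 difference of 1.82 ± 0.26 (SE) had a limma adjusted p of 0.101; the value was 0.0183 in the fit of the 3 duct sorts and 0.0251 without normal library 1. Cyr61, a sister protein of Ctgf, was at 1110, 1325, 1277 and 1045 FPKM in normal and at 2896 and 3049 FPKM after PH. Ankrd1, a nuclear ankyrin-repeat protein and YAP target, was at 221, 405, 297 and 335 FPKM against 1237 and 866 FPKM. For these genes too the groups did not overlap, and the adjusted p was 0.129 for each with limma. In the fit of the 3 sorts Cyr61 passed (adjusted p = 0.045) and Ankrd1 did not (0.0606); without normal library 1 both passed, at 0.0298 and 0.0271.

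Of the 33 tested genes of the YAP/TAZ list, 12 were higher without overlap (6.62% over all genes), 1 was lower (14.4% over all genes) and 0 passed in the fit of the 6 libraries (0.0681% over all genes). The list's median log2 difference was 0.26, against -0.11 over all genes. Ajuba, a scaffold protein that inhibits the Hippo kinases, was at 39.2, 63.8, 55.6 and 58.7 FPKM against 110 and 91.9 FPKM. Amotl2, an angiomotin that holds YAP at junctions, was at 94.6, 130, 101 and 128 FPKM against 190 and 159 FPKM. Lats2, a Hippo kinase, was at 22.9 to 25.8 FPKM against 32.7 and 37.5 FPKM, so inhibitors of the pathway were among the 12. The other members without overlap were Tead3, Tead4, Nf2, Amot, Amotl1 and Tgfb2. Birc5, an inhibitor of cell death needed in mitosis, was the member that lay lower, at 0.871 to 1.92 FPKM against 0.206 and 0 FPKM. Without normal library 1 and in the fit of the 3 sorts, 4 members passed in each. They were Ctgf, Cyr61 and Tgfb2 in both, with Ankrd1 in the former and Ajuba in the latter.

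The promoters of Ankrd1, Ajuba and Cyr61 are shown because they hold the sequence GGAATG that TEAD factors bind. It is set in capitals, and where it lies on the opposite strand it reads CATTCC. Each run is 300 bases on the gene's strand, 250 before and 50 after the start site, from RefSeq on GRCm38.p6: Ankrd1 at chr19:36119795-36120094, Ajuba at chr14:54577612-54577911 and Cyr61 (Ccn1 in RefSeq) at chr3:145649936-145650235, all on the minus strand.
Ankrd1: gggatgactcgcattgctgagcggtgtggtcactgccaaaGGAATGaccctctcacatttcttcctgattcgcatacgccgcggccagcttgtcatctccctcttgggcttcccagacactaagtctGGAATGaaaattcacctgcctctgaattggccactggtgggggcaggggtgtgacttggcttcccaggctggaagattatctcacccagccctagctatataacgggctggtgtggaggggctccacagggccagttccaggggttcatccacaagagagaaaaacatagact
Ajuba: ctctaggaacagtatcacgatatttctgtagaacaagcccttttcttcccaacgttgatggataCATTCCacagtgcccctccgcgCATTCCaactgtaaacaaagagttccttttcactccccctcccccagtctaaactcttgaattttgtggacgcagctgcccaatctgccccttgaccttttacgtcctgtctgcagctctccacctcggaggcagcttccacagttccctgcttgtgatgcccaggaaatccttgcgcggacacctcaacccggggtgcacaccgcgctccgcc
Cyr61: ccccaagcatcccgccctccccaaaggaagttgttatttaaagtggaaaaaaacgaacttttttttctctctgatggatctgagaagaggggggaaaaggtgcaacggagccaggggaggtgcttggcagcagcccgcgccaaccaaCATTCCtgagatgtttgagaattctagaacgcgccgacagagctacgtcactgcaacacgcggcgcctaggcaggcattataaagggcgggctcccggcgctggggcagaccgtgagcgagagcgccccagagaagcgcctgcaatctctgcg
The letters begin 210 and 123 bases before the start site in Ankrd1, 186 and 164 bases before it in Ajuba and 103 bases before it in Cyr61. Of the 32851 promoter windows of this length, 14.7% hold GGAATG or CATTCC on either strand, and 1.36% hold 2 or more. RefSeq windows were matched for 28 of the 35 members of the YAP/TAZ list, and 15 of the 28 genes (53.6%) hold the letters, against 16.6% of the 27025 genes with a window. Ctgf and Pdgfb are 2 genes for which no window was matched. The list was made of pathway members and known targets, and its share covers members whatever their change after PH. It therefore does not bear on the response to PH. A match is a description of the sequence and not a bound site.

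**Figure D2:**
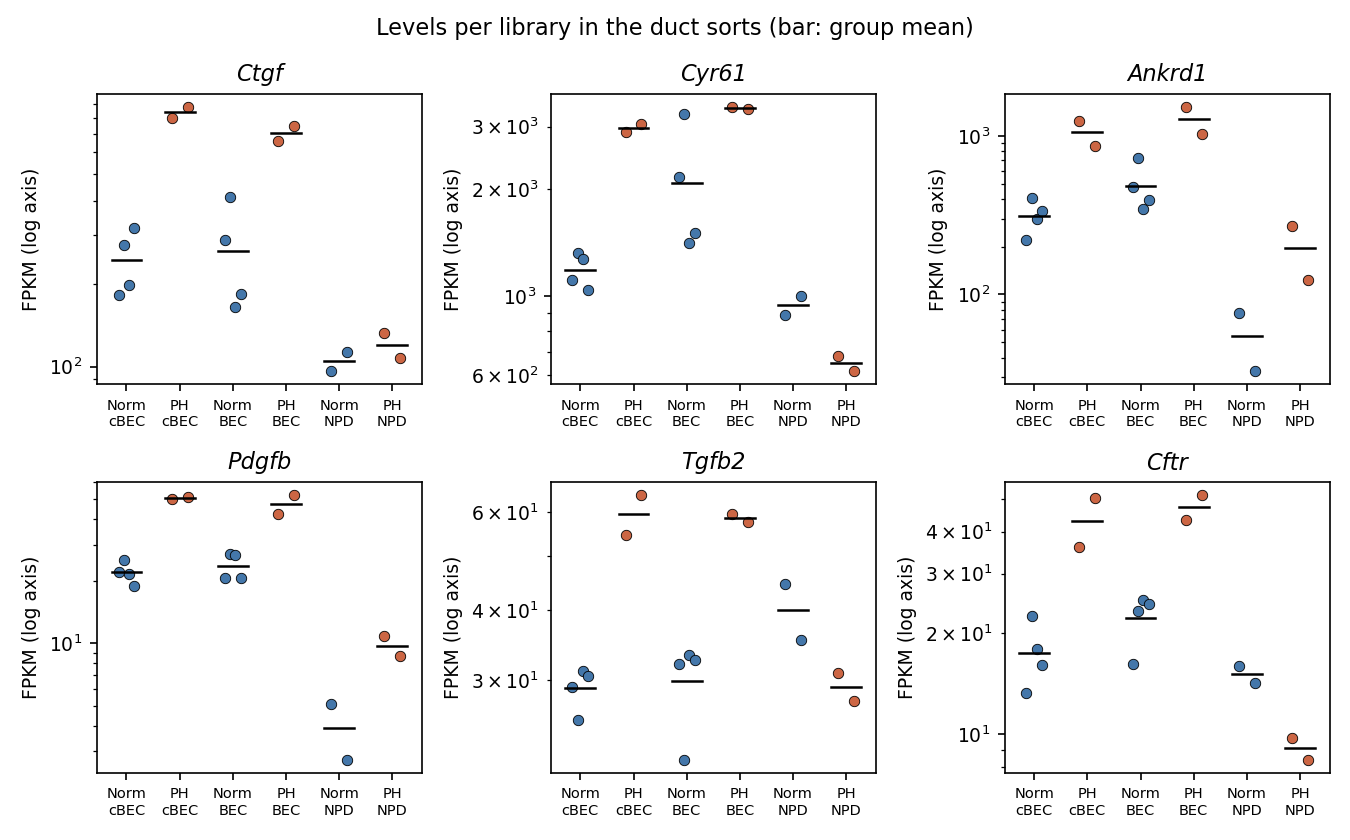
Points are libraries and bars group means in FPKM (log axis) for Ctgf, Cyr61, Ankrd1, Pdgfb, Tgfb2 and Cftr in the normal and PH groups of the 3 duct sorts. In cBEC both PH libraries lie above all 4 normal libraries in every panel, and in NPD Cyr61, Tgfb2 and Cftr lie lower after PH.

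Pdgfb, the platelet-derived growth factor B chain that recruits pericytes and stellate cells, lies at chr15:79826306-79845238 (mm9). It stood at 22.2, 25.3, 21.6 and 19.0 FPKM in normal and at 49.6 and 50.7 FPKM in PH libraries. The difference of 1.16 ± 0.17 (log2, SE) had an adjusted p of 0.101 with limma, 0.0184 in the fit of the 3 sorts and 0.033 without normal library 1. The receptors for this factor were near the floor in the same cells: Pdgfrb was at 12.5 FPKM in normal library 1 and at 0.620 to 3.19 FPKM in the other normal libraries, against 0.350 and 1.31 FPKM after PH, and Pdgfra was at 0.198 to 5.0 FPKM against 0.936 and 0.725 FPKM. Both receptors overlapped between groups.

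Tgfb2, a transforming growth factor that acts on mesenchyme, was at 29.1, 25.5, 31.2 and 30.5 FPKM in normal and at 54.6 and 64.2 FPKM after PH, higher by 1.01 ± 0.17 on the log2 scale (SE; adjusted p = 0.136 with limma, and 0.0199 in the fit of the 3 sorts). Jag1, a Notch ligand, was at 58.0, 91.4, 82.7 and 91.2 FPKM against 144 and 187 FPKM (adjusted p = 0.298, limma). Csf1, the growth factor of macrophages, was at 22.1, 21.0, 11.7 and 20.7 FPKM against 37.9 and 50.0 FPKM (adjusted p = 0.299; 0.0482 in the fit of the 3 sorts, limma). Lif, a cytokine of the interleukin-6 family, was at 3.50 to 7.52 FPKM against 17.8 and 11.6 FPKM. For all of these the groups did not overlap. Of the 53 tested ligand genes, 10 were higher and 8 lower without overlap (6.62% and 14.4% over all genes), and the median difference was -0.11, the same as over all genes.

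Among the 8 ligands that lay lower, Rspo1, an enhancer of Wnt signalling, was at 28.9, 6.36, 9.92 and 11.1 FPKM in normal libraries and at 1.21 and 0.487 FPKM after PH. Wnt2b was at 17.2, 2.75, 5.49 and 5.61 FPKM against 1.39 and 0.0849 FPKM, and Bmp4 at 13.6, 4.20, 5.81 and 5.24 FPKM against 1.61 and 0.875 FPKM. These 3 were highest in normal library 1, and the NPD sort, rich in mesothelial markers, held 510 and 540 FPKM of Rspo1 in normal liver. Vegfa, the endothelial growth factor, was at 245 to 310 FPKM against 228 and 130 FPKM, and Gas6, a ligand of the receptor Axl, at 1254 to 1571 FPKM against 964 and 950 FPKM.

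Of 39 tested receptor genes, 8 lay higher and 6 lower without overlap (6.62% and 14.4% over all genes), with a median of 0.08. Igf1r, the insulin-like growth factor receptor, was at 17.1 to 19.8 FPKM in normal and at 26.3 and 32.6 FPKM in PH libraries. Osmr, the oncostatin M receptor, was at 9.52 to 10.7 FPKM against 15.9 and 15.4 FPKM. Tnfrsf12a, the receptor of the cytokine TWEAK that drives duct growth, was at 274, 179, 166 and 158 FPKM against 429 and 299 FPKM (adjusted p = 0.371, and 0.0483 without normal library 1, limma). Egfr was listed at 0 in the 4 normal libraries and at 3.92 and 9.79 FPKM after PH, and it reached 207 FPKM in normal hepatocytes (limma adjusted p = 0.113, and 0.00641 in the fit of the 3 sorts). Notch1 lay lower (9.88 to 21.6 FPKM against 8.79 and 5.35 FPKM) and Notch2 higher (67.9 to 73.4 FPKM against 78.6 and 84.6 FPKM).

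**Figure D3:**
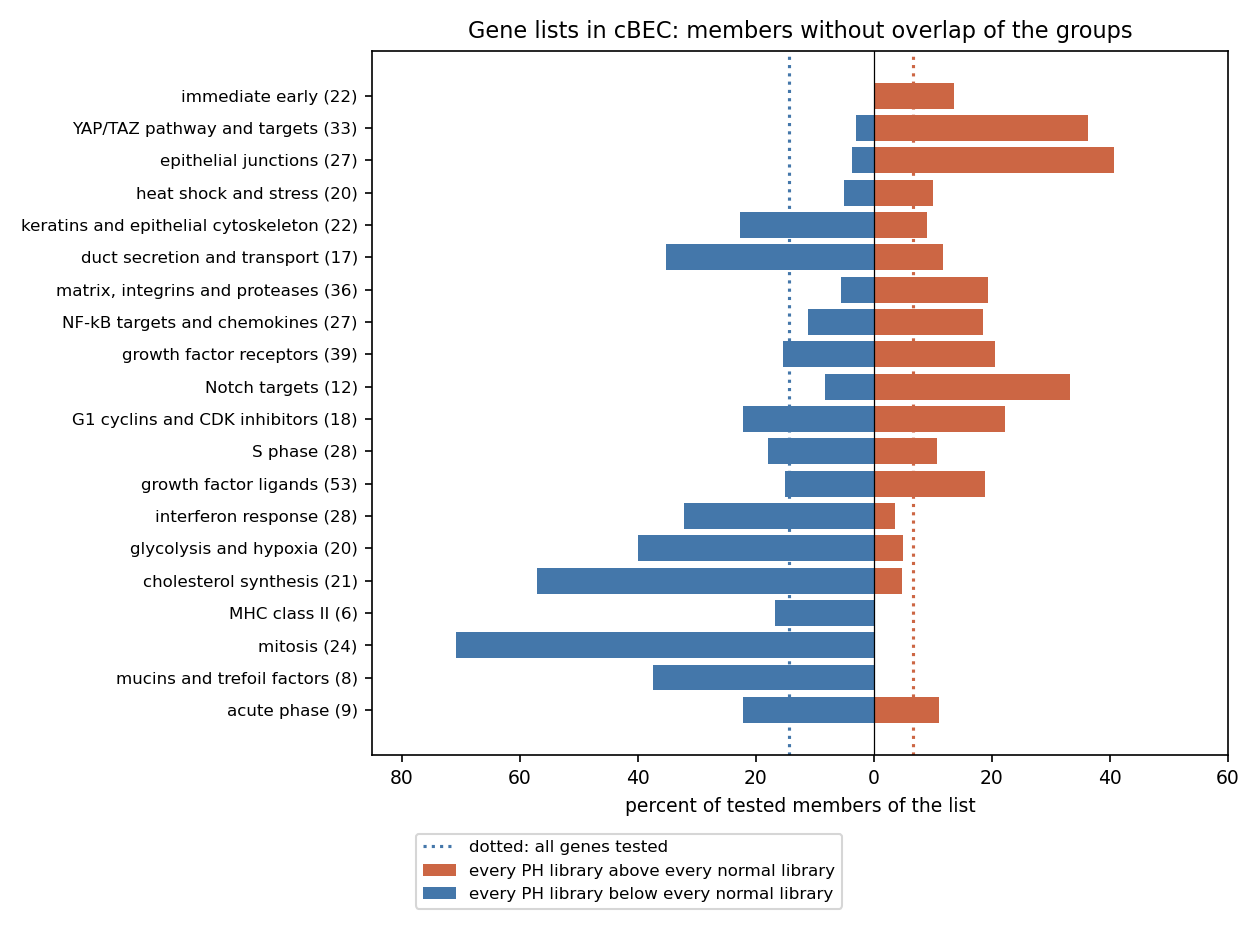
Bars give the percent of tested members of each gene list (number in brackets) whose PH libraries all lay above (right) or below (left) all normal libraries, ordered by the list's median log2 difference; dotted lines are the shares over all genes tested, 6.62% and 14.4%. The YAP/TAZ and junction lists extend to the right, and the mitosis and cholesterol lists to the left.

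Cftr, the chloride channel that drives duct secretion, was at 13.2, 22.5, 17.9 and 16.1 FPKM in normal and at 35.9 and 50.3 FPKM in PH libraries, a 2.47-fold higher mean. The groups did not overlap; the log2 difference was 1.26 ± 0.24 (SE), with a limma adjusted p of 0.188, and 0.0183 in the fit of the 3 sorts. Abcc4, an exporter of bile acids and cyclic nucleotides, was at 14.9 to 20.4 FPKM against 27.5 and 32.5 FPKM. The other secretory genes did not follow. Aqp1, a water channel, was at 456, 47.9, 25.4 and 55.3 FPKM against 8.48 and 2.57 FPKM, and the NPD sort held 1276 and 1248 FPKM of it in normal liver. Ggt1, a peptidase of the duct surface, was at 10.8 to 16.6 FPKM against 9.36 and 6.99 FPKM, and Car2, a carbonic anhydrase, at 77.1 to 280 FPKM against 48.9 and 61.9 FPKM. The anion exchanger Slc4a2 and the secretin receptor Sctr overlapped between groups. In all, 2 of 17 tested members lay higher and 6 lower without overlap (6.62% and 14.4% over all genes), with 0 passing in the fit of the 6 libraries.

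Notch signalling shapes bile ducts, and of its 12 tested target genes 4 lay higher and 1 lower without overlap (6.62% and 14.4% over all genes), with a median of -0.03 and 0 passing. Hes1, the transcriptional repressor that Notch switches on, was at 477, 541, 513 and 385 FPKM in normal and at 659 and 638 FPKM in PH libraries. Sox9, a transcription factor of duct cells, was at 99.2, 131, 130 and 126 FPKM against 159 and 191 FPKM. Dtx1, a ubiquitin ligase of the pathway, lay lower, at 11.4 to 15.6 FPKM against 8.55 and 5.31 FPKM.

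Junction genes differed by small amounts. Of 27 tested, 11 were above all normal libraries and 1 below (6.62% and 14.4% over all genes), with a median difference of 0.23, and 0 passed. Cdh1, the cadherin of epithelial adherens junctions, was at 534, 535, 633 and 534 FPKM against 651 and 721 FPKM. Ctnnd1, the catenin that stabilises it, was at 188 to 206 FPKM against 265 and 329 FPKM, and Pkp2, a desmosome plaque protein, at 23.7 to 25.8 FPKM against 31.6 and 35.1 FPKM. The claudins divided: Cldn6 and Cldn7 lay higher, and Cldn10, a claudin that forms ion pores, lay lower, at 5.43 to 17.1 FPKM against 3.14 and 3.91 FPKM. Of the junction genes, 16 of 27 reached 10 FPKM in hepatocytes; among the other 11, 5 lay higher and 1 lower.

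Fn1, which encodes fibronectin, was at 201, 277, 336 and 265 FPKM in normal and at 748 and 586 FPKM after PH (log2 difference 1.32 ± 0.24, SE; limma adjusted p = 0.173, 0.0242 in the fit of the 3 sorts and 0.0398 without normal library 1). Hepatocytes held 377 FPKM of Fn1 after PH. Itga3, a laminin receptor subunit, was at 130, 135, 133 and 124 FPKM against 205 and 227 FPKM. Tubb2b, a beta-tubulin, was at 12.9, 9.22, 8.42 and 3.89 FPKM against 29.6 and 25.3 FPKM. Flna, the actin cross-linker filamin A, and Myh9, a non-muscle myosin heavy chain, passed in the fit of the 3 sorts (adjusted p = 0.0452 and 0.0308, limma), and were picked out after that fit was seen. Flna was at 166 to 201 FPKM in normal and 326 and 347 FPKM in PH libraries, and Myh9 at 167 to 232 FPKM and 381 and 409 FPKM. Acta2, the actin of smooth muscle and myofibroblasts, was at 107, 21.9, 6.18 and 68.2 FPKM in normal and at 1.2 and 1.16 FPKM in PH libraries. Of 36 tested matrix, integrin and protease genes, 7 lay higher and 2 lower without overlap (6.62% and 14.4% over all genes).

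Other genes low in hepatocytes with the smallest p and higher values were Basp1, Cdh6, Nfkbie, Ctps and Lhfp. Basp1, a membrane protein of growing cell edges, was at 12.8, 9.55, 12.7 and 12.4 FPKM in normal and at 28.2 and 34.9 FPKM in PH libraries (limma adjusted p = 0.101, and 0.000831 in the fit of the 3 sorts). Cdh6, a cadherin of embryonic and duct epithelium, was at 26.9 to 35.1 FPKM against 58.7 and 68.3 FPKM. Nfkbie, an inhibitor of NF-kB, was at 20.5 to 25 FPKM against 47.0 and 41.9 FPKM, and Ctps, the synthetase of CTP, at 11 to 21.7 FPKM against 41.7 and 45.1 FPKM. Lhfp was at 39.7 to 55.2 FPKM against 92.7 and 125 FPKM. All of these passed in the fit of the 3 sorts and none in the fit of the 6 libraries. Without normal library 1, Basp1 and Cdh6 passed (limma adjusted p = 0.0301 and 0.0448), and Nfkbie, Ctps and Lhfp did not (0.0505, 0.0603 and 0.0603). Among immediate early genes, Jun, Klf6 and Dusp1 lay higher without overlap (3 of 22, with 0 lower; 6.62% and 14.4% over all genes); the phosphatase gene Dusp1 was at 590 to 788 FPKM against 1421 and 1301 FPKM. Without normal library 1, 9 of the 22 lay higher (9.47% over all genes), and Klf6 and Dusp1 passed (adjusted p = 0.0448 and 0.0301, limma). Neither passed in the fit of the 3 sorts (adjusted p = 0.176 and 0.117, limma).

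Of 18 tested G1 genes, 4 lay higher and 4 lower without overlap (6.62% and 14.4% over all genes), with a median of -0.03. Ccnd1 and Ccnd2, cyclins of early G1, lay higher: Ccnd1 was at 231, 288, 273 and 290 FPKM against 381 and 397 FPKM, and Ccnd2 at 55.7 to 83.6 FPKM against 90.9 and 121 FPKM. Cdkn2c, an inhibitor of the kinases that these cyclins activate, was at 8.29 to 19.1 FPKM against 5.37 and 5.88 FPKM. Neither cyclin passed (adjusted p = 0.431 and 0.4, limma). Of 28 tested S phase genes, 3 lay higher and 5 lower without overlap (6.62% and 14.4% over all genes), with a median of -0.07. Pcna, the clamp of DNA polymerase, was at 38.0 to 51.7 FPKM against 37.0 and 30.2 FPKM. Of 24 tested mitosis genes, 0 lay higher and 17 lower without overlap (6.62% and 14.4% over all genes), with a median of -1.0. These were low throughout. Top2a, the topoisomerase of dividing cells, was at 3.59, 6.75, 1.98 and 5.88 FPKM against 1.48 and 0.524 FPKM. Cdk1, the mitotic kinase, was at 1.37 to 3.30 FPKM against 0.149 and 0 FPKM. A gene this low can pass the filter on low values through its normal libraries alone, as Cdk1 did. Part of the count of 17 may therefore follow from the filter. No member of the 3 cell cycle lists passed in the fit of the 6 libraries, and the median of the mitosis list was -0.54 after quantile normalization. Without normal library 1, Cdkn2c passed (limma adjusted p = 0.0398). Of 28 S phase genes, 10 then lay lower and 3 higher without overlap (28.2% and 9.47% over all genes).

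The NPD sort differed in this respect, and here the difference of responses was tested. In the fit of the 3 sorts, 28 of 30 S phase genes and 19 of 30 mitosis genes were higher after PH in NPD (over all genes 11.1% were higher and 5.53% lower there), against 0 and 0 in the clonal cells (0.221% over all genes). The response was lower in clonal cells than in NPD for 24 of 30 S phase genes and 20 of 30 mitosis genes, where 4.04% of all genes were. In this fit a gene can pass the filter on low values through the PH NPD libraries alone. All 30 members of each list were tested here, against 28 S phase and 24 mitosis genes in the 6 clonal libraries. Part of these counts may therefore follow from the filter. Cdc45, a factor that starts DNA replication, was at 0.210 and 1.26 FPKM in normal NPD and at 18.0 and 19.1 FPKM after PH. In the clonal cells it was at 0.867, 4.61, 1.91 and 4.51 FPKM in normal libraries and at 1.05 and 0.48 FPKM after PH. The difference of responses in Cdc45 was -4.61 ± 0.70 (log2, SE; limma adjusted p = 0.00156). For Top2a it was -4.96 ± 0.77 (adjusted p = 0.0018), with 20.1 and 41.1 FPKM in NPD after PH. The NPD sort held more mesothelial than biliary marker signal in normal liver, and how far its response describes duct cells was not tested.

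**Figure D4:**
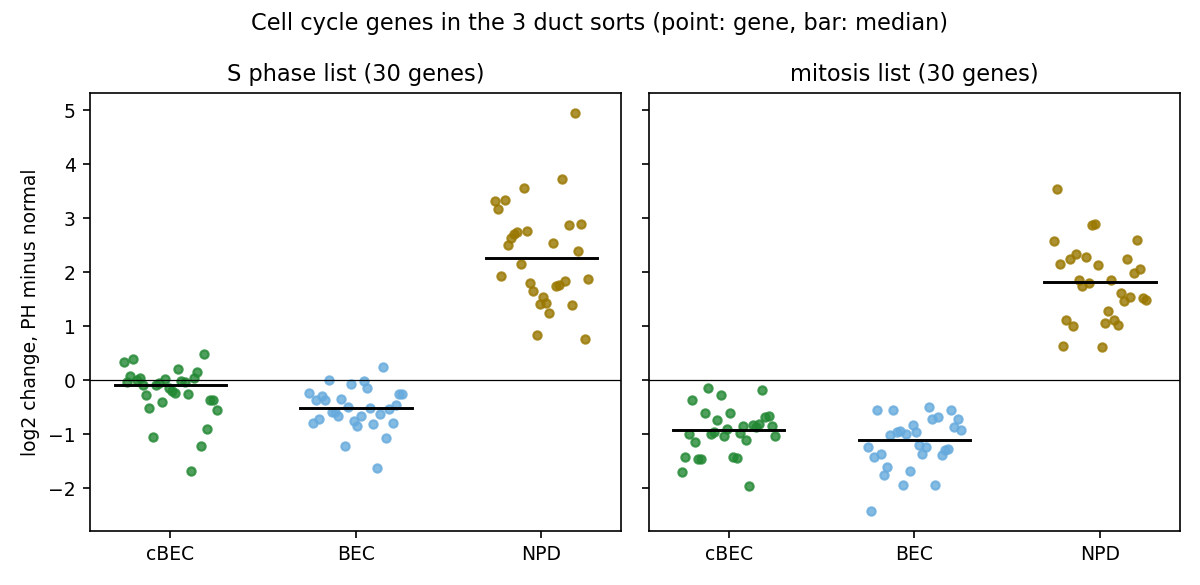
Points are genes and bars medians of the log2 change after PH for the S phase and mitosis lists in the clonal cells, BEC and NPD, from the fit of the 3 sorts. The NPD points lie above 0 and those of the mitosis list in cBEC and BEC lie below it.

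Of 28 interferon response genes, 9 lay lower and 1 higher without overlap (14.4% and 6.62% over all genes), with a median of -0.35. Gbp2, an interferon-induced GTPase, was at 35.9, 22.7, 18.2 and 24.2 FPKM in normal and at 7.90 and 8.49 FPKM in PH libraries, and Gbp3 of the same family at 3.89 to 8.69 FPKM against 1.18 and 0.839 FPKM. Both passed in the fit of the 3 sorts (adjusted p = 0.0183 for each, limma), and NPD held 522 and 528 FPKM of Gbp2 in normal liver. Oasl2, an oligoadenylate synthetase-like gene, was at 23.3 to 34.5 FPKM against 15.2 and 15.6 FPKM. Of 21 cholesterol synthesis genes, 12 lay lower and 1 higher without overlap (the same shares over all genes), with a median of -0.48. Lss, which closes the sterol ring, was at 26.3 to 45.0 FPKM against 15.7 and 19.1 FPKM. Msmo1, a sterol oxidase, was at 115 to 228 FPKM against 62.4 and 94.7 FPKM. In hepatocytes 20 of the 21 reached 10 FPKM, and Lss was at 12.3 FPKM in normal and 13.7 FPKM in PH hepatocytes. Over all tested genes at 10 to 100 FPKM in hepatocytes, 0.67% of the values were exactly 0. The part of hepatocyte transcripts in the result for this list was not tested.

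Of 20 glycolysis and hypoxia genes, 8 lay lower and 1 higher without overlap (14.4% and 6.62% over all genes), and Ldha passed (0.0681% over all genes did); Eno1, which encodes enolase, was the higher one, at 63.9 to 94.7 FPKM against 121 and 114 FPKM. Among 8 tested mucin and trefoil genes 3 lay lower (14.4% over all genes): Muc1 (188 to 596 FPKM against 149 and 151 FPKM), Tff2 (49.4 to 155 FPKM against 39.3 and 19.2 FPKM) and Lgals4 (17.7 to 293 FPKM against 8.53 and 4.74 FPKM), each highest in normal library 1. Genes low in hepatocytes with the smallest p on the lower side included Smim5, at 20.8, 39.1, 27.1 and 31.3 FPKM against 7.41 and 7.98 FPKM (limma adjusted p = 0.0907, 0.0226 in the fit of the 3 sorts and 0.00646 without normal library 1). Smim6, also on chromosome 11, was at 36.3 to 54.1 FPKM against 22.3 and 18.9 FPKM. Tbxas1, the thromboxane synthase, was at 9.48 to 15.1 FPKM against 3.09 and 0.841 FPKM, and the peptide transporter gene Slc15a2 at 21.9 to 27.1 FPKM against 11 and 4.13 FPKM. Tmem252 was at 4.49 to 10.3 FPKM against 1.08 and 0.757 FPKM, and Tppp, which bundles microtubules, at 4.94 to 11.7 FPKM against 1.33 and 1.15 FPKM.

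Markers of other cell types moved with the lower genes. The 8 mesothelial markers summed to 549 FPKM in normal library 1, to 156, 180 and 207 FPKM in the other normal libraries and to 93.0 and 65.9 FPKM after PH, and 6 of the 8 lay lower without overlap (14.4% over all genes). The 11 fibroblast markers summed to 940, 207, 172 and 240 FPKM against 68.8 and 89.0 FPKM, with 7 of 11 lower. The 11 Kupffer cell markers summed to 88.5 to 196 FPKM against 64.3 and 43.3 FPKM, with 4 of 11 lower. The 10 endothelial markers summed to 37.8 to 270 FPKM against 26.1 and 19.4 FPKM, with 3 of 10 lower, and the 9 sinusoidal markers to 6.15 to 157 FPKM against 12.8 and 10.6 FPKM, with 1 of 9 lower. Stellate markers overlapped, with sums of 209 to 242 FPKM against 162 and 302 FPKM. In bulk samples fewer cells of a type and less RNA per cell cannot be told apart.

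The lower genes overlap this pattern in their levels. Of the 69 genes lower in the fit of the 3 sorts, 49 (71%) were higher in both normal NPD libraries than in every normal clonal library, against 17.1% of all genes tested. Of the 32 higher genes, 9 (28.1%) were so placed. Igfbp5, an insulin-like growth factor binding protein, is an example picked after its values were seen: it was at 336, 48.9, 55.3 and 87.5 FPKM in normal and at 2.52 and 0.989 FPKM in PH libraries, and at 3157 and 4366 FPKM in normal NPD. Clec3b, a plasminogen-binding lectin, was at 20.3, 6.29, 5.97 and 10.0 FPKM against 0.709 and 0 FPKM. Normal library 1 held the highest value among the clonal libraries for 45 of the 69 lower genes (65.2%), against 21.8% of all genes tested. Without normal library 1, 31 of the 32 higher and 66 of the 69 lower genes still passed in the fit of the 3 sorts. The part of other cell types in the lower values was not tested.

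**Figure D5:**
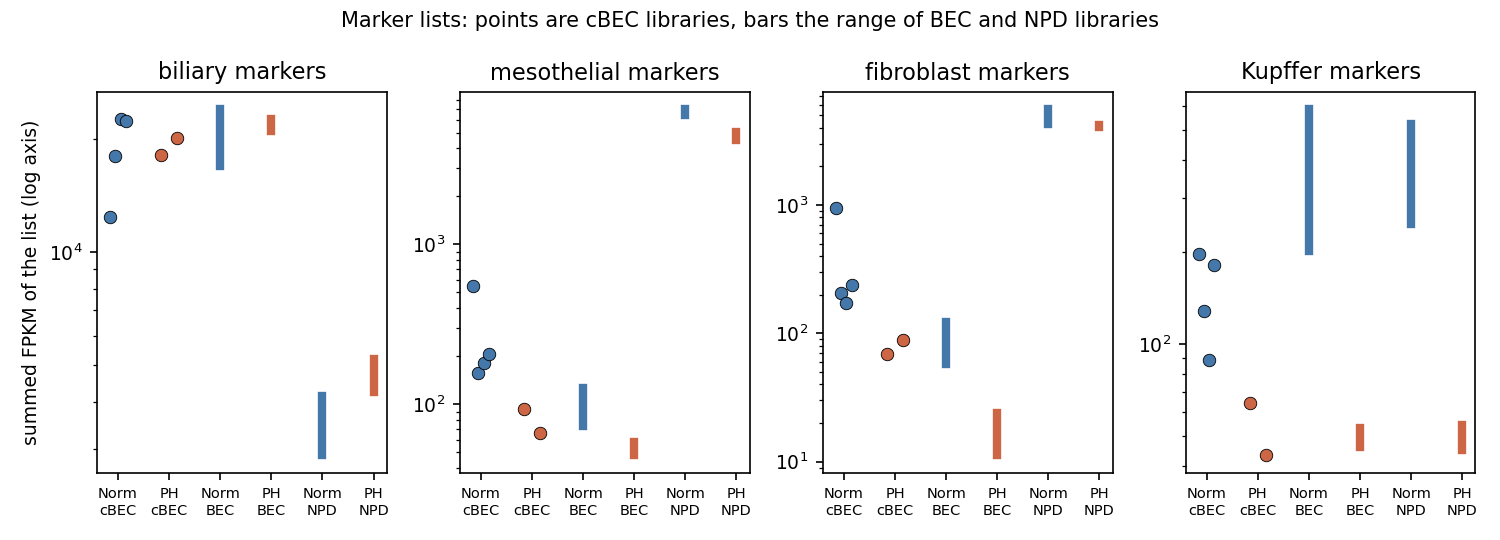
Points are the clonal biliary libraries and vertical bars the range of BEC and NPD libraries, for the summed FPKM (log axis) of biliary, mesothelial, fibroblast and Kupffer cell marker lists. The mesothelial and fibroblast sums of normal library 1 (549 and 940 FPKM) stand above the other clonal libraries, and the NPD ranges stand above every clonal library for those 2 lists and below every one for the biliary list.

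The response of the clonal cells was next set against that of BEC, the other sort of biliary cells. With limma, 0 of 14491 genes differed in response between these sorts (0%), and 252 had an unadjusted p under 0.05. That is a smaller share than the 0.05 that chance gives when libraries are independent. The fit treats all libraries as independent, which was not tested. In the same fit BEC had 106 called genes (0.731%; 26 higher, 0.179%, and 80 lower, 0.552%), of which 34 were also called in the clonal cells in the same direction, that is 33.7% of the clonal and 32.1% of the BEC calls. Of the 32 higher genes of the clonal cells, 28 (87.5%) also lay higher without overlap in BEC. Of the 69 lower genes, 59 (85.5%) lay lower. Over all genes the share was 24.1%, which pools both directions. The fit that chose these genes includes the BEC libraries in its spread, so a small spread in BEC helped a gene to pass. Of the 32 higher genes, 16 reached 10 FPKM in a hepatocyte group. Among them, Trf, Gstp1, Aldh1l1, Acsl1 and Inmt were listed at 0 in every normal BEC library, and Sephs2 in all but library 3. Neither these shares nor the 34 shared calls are therefore an independent check. Ctgf was at 164 to 412 FPKM in normal BEC and at 658 and 750 FPKM after PH, and Pdgfb at 20.6 to 27.1 FPKM and 42.0 and 52.0 FPKM. Basp1 was at 7.50 to 8.15 FPKM and 22.4 and 26.3 FPKM, and Cftr at 16.1 to 25.1 FPKM and 43.3 and 51.3 FPKM. The labels do not say whether both sorts came from the same animals; PH library 1 of the clonal cells correlated at 0.984 with PH library 1 of BEC, and at 0.952 with the other clonal PH library. A missed threshold does not show that the sorts respond alike.

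Against NPD, 748 of 14491 genes differed in response (5.16%), 163 higher in the clonal cells (1.12%) and 585 lower (4.04%). The split was 292 and 335 after quantile normalization and 234 and 480 after upper-quartile scaling. Several genes of the clonal response were among the 163. For Tgfb2 the difference of responses was 1.44 ± 0.28 (log2, SE; limma adjusted p = 0.00695): NPD was at 35.3 and 44.5 FPKM in normal and 27.5 and 30.9 FPKM in PH libraries. For Cftr it was 1.94 ± 0.34 (adjusted p = 0.004), with NPD at 14.2 and 15.9 FPKM and then 8.42 and 9.78 FPKM. For Cyr61 it was 1.87 ± 0.42 (adjusted p = 0.0189), for Basp1 1.79 ± 0.25 (0.000841) and for Lhfp 1.53 ± 0.30 (0.00747). For Ctgf it missed the threshold, at 1.63 ± 0.49 (adjusted p = 0.0716), and for Pdgfb it was -0.01 ± 0.31 (adjusted p = 0.993); in NPD it went from 2.74 and 5.06 FPKM to 8.67 and 10.8 FPKM.

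The largest differences in favour of the clonal cells came from falls in NPD. Slc4a11, a membrane transporter, was at 89.8 and 107 FPKM in normal NPD and at 11.2 and 11.3 FPKM after PH, while the clonal cells were at 2.39 to 5.16 FPKM and then 8.01 and 5.25 FPKM. Mturn was at 55.5 and 58.4 FPKM in normal NPD and at 3.92 and 4.04 FPKM after PH, against 6.46 to 9.36 FPKM and 7.09 and 8.39 FPKM in the clonal cells. Among the large differences in the other direction were genes that rose in NPD. Serpinb2, an inhibitor of plasminogen activators, was at 0 and 0.183 FPKM in normal NPD and at 168 and 223 FPKM after PH, and at 0, 0, 0.123 and 1.56 FPKM and then 6.71 and 1.77 FPKM in the clonal cells. Ly6a, a surface antigen, was at 4.56 and 18.6 FPKM and then 71.7 and 91.6 FPKM in NPD, and at 20 to 60.7 FPKM and then 10.6 and 8.02 FPKM in the clonal cells.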

How the data were processed

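FPKM were computed by the authors and deposited as 1 table, with 36141 rows of RefSeq transcripts on mm9; the submitters' processing notes name CASAVA 1.8.2 and Bowtie 1.0.0. The counting program and annotation are not given in the sources used here. FPKM keep no read depth, so depth is unknown here and values carry no counting interval. For each of the 24478 symbols the row with the highest mean over the 55 libraries was kept. Genes with at least 1 FPKM in at least 2 of the fitted libraries were tested on log2(FPKM + 1) with limma 3.58.1 in R 4.3.3 (trend and robust moderation, two-sided, Benjamini-Hochberg over all genes tested, adjusted p under 0.05). Differences on this scale understate low genes. Differences of responses were fitted on 16 libraries in 6 groups; "the fit of the 3 duct sorts" is that fit.

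Genes were named by a rule: those that passed with a log2 change of at least 1 and no overlap; the 10 smallest p in each direction among genes under 10 FPKM in hepatocytes; up to 4 members of each list; Epcam, Krt19, Ctgf and Pdgfb; and the 5 largest differences of responses in each direction. One gene of the last set is not reported here. Members and lists were chosen with earlier results of these data known. Genes outside the rule were picked after their values were seen. On simulated data of the 6-library design, 26 of 100 changes of 1 and 97 of 100 changes of 2 (log2) were recovered among 13225 genes, with 9 false calls; for the difference between cBEC and NPD, 10 of 100 and 71 of 100 among 14491 genes, with 4 false calls. Python 3.11.15 with matplotlib 3.10.9 drew the figures.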

Additional observations from a re-analysis of the deposited data

Results flagged for a closer look

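In 6 of 41 values examined, 1 of the 4 normal libraries lay far from the others; chance gives about 1 in 20 such cases. Normal library 1 was far from the rest for Krt19 (1383 FPKM), the summed fibroblast markers (940 FPKM) and the summed mesothelial markers (549 FPKM). Normal library 4 was far from the rest for the summed hepatocyte markers (858 FPKM) and for Acsl1 (0.223 FPKM, the others at 0). Basp1 was lowest in normal library 2, at 9.55 FPKM.

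The response to PH differed between the clonal cells and NPD in 748 genes. The differences were 3.67 for Slc4a11, 3.65 for Omd, 3.53 for Colec11, 3.42 for Mturn and 3.08 for Aif1 (log2, clonal cells minus NPD). They were -4.61 for Cdc45, -4.62 for Ly6a, -4.76 for Hells and -5.65 for Serpinb2. Omd was listed at 0 in both clonal PH libraries, and at 0 to 1.15 FPKM in the normal ones.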

How the results depend on the processing

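The count of 9 genes moved with the fit: 101 in the fit of the 3 duct sorts, 515 in a fit of all 20 groups, 5 with PH library 1 grouped by its tag and 0 among genes under 10 FPKM in hepatocytes. Leaving out 1 library gave 2 (PH library 2) to 99 genes (normal library 1), with 21 without normal library 3 and 15 without normal library 4. In the fit of the 3 sorts, settings chosen after seeing the data gave 244 genes without normal library 1, 62 among genes under 10 FPKM in hepatocytes, 83 with upper-quartile scaling and 80 with quantile normalization; 40 genes passed in the clonal cells alone without normal library 1 and under 10 FPKM in hepatocytes. Whether the replicate numbers pair the samples could not be decided. Deviations of same-numbered libraries correlated at 0.0963 and 0.0605, but with 2 PH libraries the deviations of 1 mirror those of the other. With the replicate block 61 genes passed, and Epcam changed sign to 0.0077 (log2, adjusted p = 0.998, limma). The other counts stayed within 1.5 times. For responses, the comparison with BEC gave 2 genes instead of 0 in a fit of all groups, and that with NPD gave 215 (without PH NPD library 1), 303 (without PH NPD library 2), 345 (without PH cBEC library 2) and 1145 genes (without normal cBEC library 1) instead of 748. The cause was not tested. Of 643 values of 31 genes under alternatives, 492 kept their direction and side of the threshold, 126 newly passed, 24 no longer passed and 1 changed sign. Of 432 medians of 20 lists, 33 moved by more than 1 SD of the normal libraries. Depth limits on low values are unknown.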
